A study of Sus scrofa with 12 samples.

Results

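Heat shock proteins and chaperones were examined in whole uteri of neonatal pigs. Members were the entries of the deposited expression table whose gene symbol begins with HSPA, HSPB, HSP90, HSPD, HSPE, HSPH or DNAJ, begins with BAG or CCT followed by a digit, or is HSF1, HSF2, TCP1, CALR or CANX. The rule found 34 of the 20390 protein-coding entries. They comprise 5 HSP70 genes, 1 HSP110, 2 HSP90, 2 of the HSP60/HSP10 pair, 2 CCT subunits, 18 J proteins (3 DNAJA, 5 DNAJB and 10 DNAJC), 2 BAG genes, CALR and HSF2. Because 13716 entries of the table carry placeholder names, a further 44 entries met the same rule only by their symbol in the NCBI gene table of a later assembly, or through an older symbol such as Hsp27 for HSPB1. These 44 are named here by that table, kept apart from the 34 and described beside them.

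Chaperones bind unfolded or partly folded proteins and help them reach or regain their native shape. HSP70 proteins work in cycles of ATP hydrolysis that J proteins (DNAJ) start and nucleotide exchange factors such as HSP110 and many BAG proteins end. HSP90 acts on late folding clients such as steroid receptors, and chaperonins (HSP60 with HSP10 in mitochondria, the CCT ring in the cytosol) enclose their clients in a chamber. Small heat shock proteins hold unfolding proteins without using ATP and are abundant in muscle, and heat shock factors are transcription factors that switch on many of these genes under stress.

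The samples were uteri of crossbred gilts (female piglets), 4 per group in 3 groups. PND2N gilts had nursed freely for 48 h and PND2R gilts had been fed a commercial milk replacer for 48 h, and both were killed at 50 h of age on postnatal day 2. PND0 gilts were killed within 1 h of birth without having nursed. Both day 2 groups were older than the PND0 group and had been fed, so age and feeding cannot be told apart in a comparison with PND0, whereas PND2N against PND2R compares 2 ways of feeding at one age. The labels name no litter.

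Poly(A) RNA-seq libraries were summarised by the submitters as 1 normalized value per gene and library. The values of a library summed to between 26534074 and 29544130, and the members took 0.542% to 0.723% of that sum. Read counts were not used here, so the sequencing depth behind a value is unknown. The lowest value in the table is 1, which 17.8% to 22.1% of the genes held in each library. Of 10 uterine identity genes of a marker list, 9 were matched and none was at 1 in all libraries, with summed values of 31248 to 42139 in PND2N, 29809 to 42651 in PND2R and 25327 to 45496 in PND0. The 5 matched skeletal muscle markers summed to 45.9 or less in every library. In a bulk tissue, fewer cells of a type and less RNA per cell cannot be told apart.

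Some libraries stood apart within their groups. PND2N 1, PND2R 2 and PND2R 3 had the highest sums of 9 smooth muscle markers, at 360146, 284505 and 285009, against 132610 to 236200 in the other day 2 libraries and 150574 to 212682 in PND0. The 9 markers did not move together. MYLK, the smooth muscle myosin kinase, was at 930, 1366 and 792 in those 3 libraries, against 3182 to 7138 in the other day 2 libraries and 6638 to 14121 in PND0, and SYNPO2 was also lowest of the day 2 libraries there, at 16530, 15194 and 14172. PND0 3 and PND0 4 had low sums of 10 epithelial markers, at 32232 and 25804, against 108662 and 113164 in PND0 1 and PND0 2, and 53368 to 97194 in all day 2 libraries. PND2N 1, PND2R 2 and PND2R 3 also had the largest shares of genes at 1 (22.1%, 21.9% and 21.3%). In the other day 2 libraries this share was 18.7% to 20.4%. VWF, an endothelial marker, was at 24.2, 55.8 and 90.2 in those 3 libraries, against 591 to 1733 in the other day 2 libraries. EGFL7, of the same list, was highest in them, at 4622, 2930 and 3489. The parts of cell makeup and of RNA or library quality in the results below were not tested. The results are given with all 12 libraries, and the calls that end without PND2N 1, PND2R 2 and PND2R 3, or without PND0 3 and PND0 4, are stated.

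Of the 34 members, 33 passed the filter on low values (above 1 in at least 4 libraries). DNAJC5B, a J protein of vesicle membranes, was listed at 1 in all libraries except PND2N 3, at 1.18, and was not tested. In PND2N against PND0, 2 of 33 members passed the threshold of an adjusted p under 0.05 (limma on log2(value + 1), Benjamini-Hochberg over 16862 genes). CCT2 rose, beside 1.91% of all genes tested that rose, and HSPA12A fell, beside 1.41% of all genes that fell. In PND2R against PND0, 7 of 33 passed. CCT2, HSPE1, CALR, DNAJC7 and DNAJB13 rose, which is 5 of 33 where 7.7% of all genes rose, and HSPA12A and DNAJB14 fell, which is 2 of 33 where 7.31% of all genes fell.

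As a group the members did not move one way. Their median log2 change was 0.04 in PND2N against PND0, beside a median of -0.04 over all genes, and -0.04 in PND2R against PND0, beside -0.06. Of the 33, 18 were higher and 15 lower in PND2N than in PND0, and 15 were higher and 18 lower in PND2R than in PND0. All 4 PND2N libraries lay above all 4 PND0 libraries for 5 members (8.14% of all genes) and below them for 1 (7.88% of all genes). All 4 PND2R libraries lay above PND0 for 9 members (12.7% of all genes) and below for 6 (15.6% of all genes). The comparisons with PND0 share the same 4 newborn libraries.

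**Figure D1:**
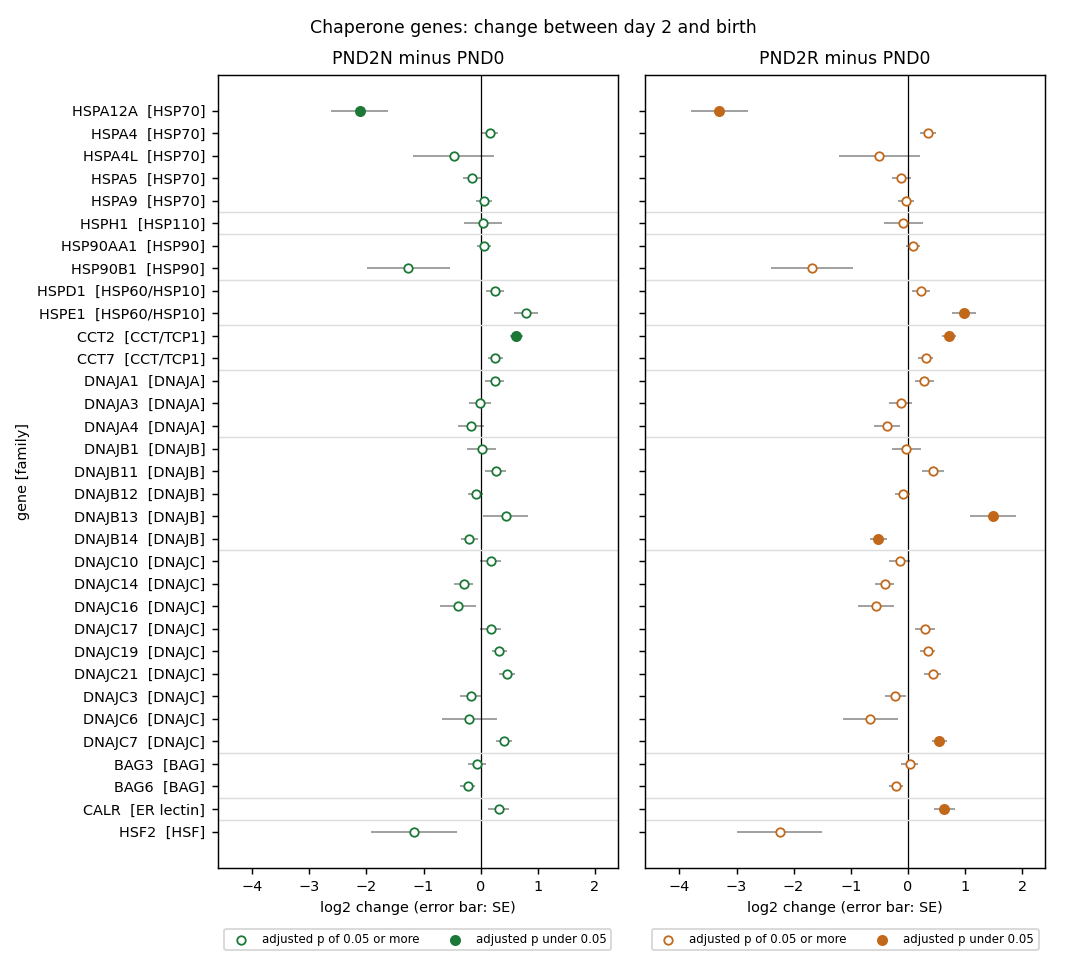
Log2 change (x axis, bars are standard errors) of the 33 tested members, grouped by family (y axis), in PND2N against PND0 on the left and PND2R against PND0 on the right. Filled points passed an adjusted p under 0.05: 2 members on the left and 7 on the right, while most members sit close to 0.

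The CCT subunits form the cytosolic chaperonin, which folds actin and tubulin. CCT2, its beta subunit (chr5:35635831-35643139 in the deposited Sscrofa10.2 coordinates, minus strand), had values of 4557, 5107, 4477 and 5563 in PND2N, 5487, 5425, 4979 and 5116 in PND2R, and 3327, 3255, 3350 and 2849 in PND0. Every day 2 library lay above every PND0 library. The log2 change was 0.62 ± 0.12 (SE) in PND2N against PND0, or 1.54-fold (adjusted p = 0.0247), and 0.72 ± 0.12 in PND2R against PND0, or 1.65-fold (adjusted p = 0.00724). The PND2R call held with any 1 library left out, while the PND2N call was lost without PND2N 2, PND2N 4 or PND0 4 (adjusted p of 0.0616 to 0.0924).

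CCT7, the eta subunit, had values of 11032, 9732, 9678 and 9772 in PND2N, 9616, 11501, 11106 and 9663 in PND2R, and 9340, 9773, 7651 and 7197 in PND0. The groups overlapped through PND0 2 and the log2 changes of 0.25 ± 0.13 and 0.31 ± 0.13 did not pass the test (adjusted p = 0.256 in PND2N and 0.112 in PND2R). Of the 34 members these are the only CCT subunits.

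The NCBI names add CCT3, CCT4, CCT8 and TCP1 (the alpha subunit), and CCT6B and CCT8L2, a pair related to single subunits. CCT3 had values of 15022, 11203, 11518 and 11865 in PND2N, 11704, 14464, 14636 and 11918 in PND2R, and 8264, 9625, 8839 and 6969 in PND0. CCT8 had 7665, 8053, 8771 and 7891 in PND2N, 9020, 8421, 9092 and 8698 in PND2R, and 6173, 6687, 7423 and 6021 in PND0. For both genes no day 2 library overlapped PND0.

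CCT4 had values of 9582 to 10702 in PND2N, 10311 to 11139 in PND2R and 7668 to 8943 in PND0, again without overlap. TCP1 had 8799, 7272, 7029 and 6502 in PND2N, 6786, 7978, 8207 and 6961 in PND2R, and 5825, 6568, 6455 and 5445 in PND0. Its PND2R and PND0 libraries did not overlap, and PND2N 4 lay just below PND0 2. CCT3 (log2 change of 0.65, adjusted p = 0.0187), CCT8 (0.43, adjusted p = 0.0265) and CCT4 (0.33, adjusted p = 0.0499988, just under the threshold) rose in PND2R. With CCT2, 4 of the 8 CCT entries rose there, where 7.7% of all genes rose. CCT2 alone passed in PND2N, where 1.91% of all genes rose. TCP1 did not pass (0.28 in PND2N and 0.30 in PND2R, adjusted p = 0.214 and 0.118).

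Of all 16862 genes tested, 8007 were higher in PND2N and 7926 in PND2R than in PND0. Of the 8 CCT entries, 7 were higher in each day 2 group than in PND0, with a median log2 change of 0.28 in PND2N and 0.32 in PND2R. The exception, CCT8L2, had log2 changes of -0.90 and -0.23, not past the test, and the PND2R value turned positive with quantile normalization. Without PND2N 1, PND2R 2 and PND2R 3 the family medians were 0.26 and 0.28, and CCT2 was the subunit past the threshold (log2 change of 0.66 in PND2N and 0.73 in PND2R, adjusted p = 0.0472 and 0.0482). The PND2R call of CCT3 was lost without PND2R 2, PND2R 3 or PND0 4 (adjusted p up to 0.0653), that of CCT8 without any of 5 single libraries (PND2R 2, PND2R 3, PND2R 4, PND0 1 or PND0 4, adjusted p up to 0.0824), and that of CCT4 without any single library except PND2N 1 (adjusted p up to 0.117).

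**Figure D2:**
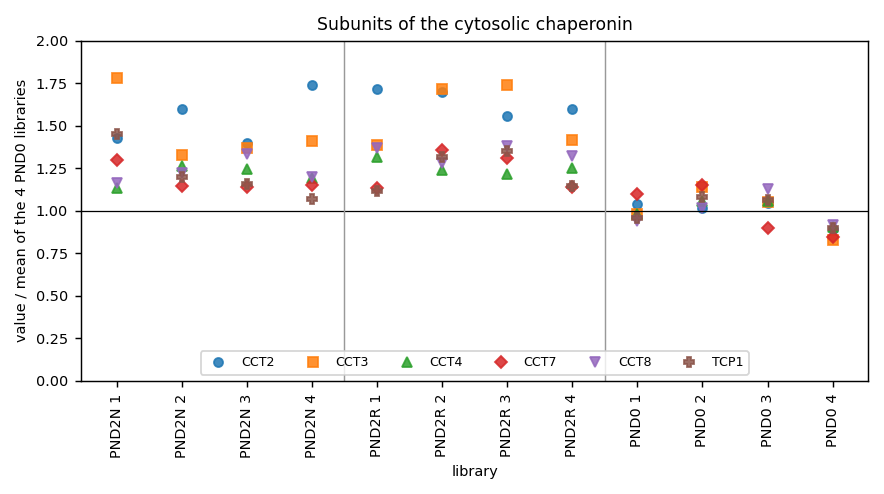
Value of 6 cytosolic chaperonin subunits divided by the gene's own mean over the 4 PND0 libraries (y axis) in each of the 12 libraries (x axis). The ratios range over 1.07 to 1.78 in PND2N, 1.12 to 1.74 in PND2R and 0.827 to 1.15 in PND0.

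HSPD1 and HSPE1 encode the mitochondrial chaperonin HSP60 and its co-chaperonin lid HSP10. In mammals they are known as head-to-head neighbours that share a promoter, and in the deposited coordinates HSPD1 (chr15:107996562-108009996, minus strand) and HSPE1 (chr15:108010491-108012618, plus strand) are separated by 494 bases. HSPE1 had values of 11729, 7514, 7083 and 8547 in PND2N, 8361, 10236, 12718 and 8507 in PND2R, and 6162, 5569, 4749 and 3685 in PND0. No day 2 library overlapped PND0. HSPE1 rose in PND2R by a log2 change of 0.99 ± 0.21, or 1.98-fold (adjusted p = 0.0160), and its log2 change of 0.79 ± 0.21 in PND2N missed the threshold (adjusted p = 0.0606).

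HSPD1 had values of 9125, 11920, 13829 and 9239 in PND2N, 12455, 9815, 9712 and 11186 in PND2R, and 9400, 9950, 9217 and 8145 in PND0. The groups overlapped and the log2 changes were 0.25 ± 0.16 in PND2N and 0.23 ± 0.16 in PND2R (adjusted p = 0.334 and 0.293). The difference between the changes of the neighbours was not tested. In the day 2 groups the libraries ranked differently for the pair: PND2N 1 was the highest PND2N library for HSPE1 and the lowest for HSPD1, and PND2R 3 was the highest PND2R library for HSPE1 and the lowest for HSPD1. The HSPE1 call was lost without PND2R 2 or PND2R 3 (adjusted p of 0.0518 to 0.0548), and without PND2N 1, PND2R 2 and PND2R 3 together its log2 change in PND2R was 0.77 (adjusted p = 0.0838).

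**Figure D3:**
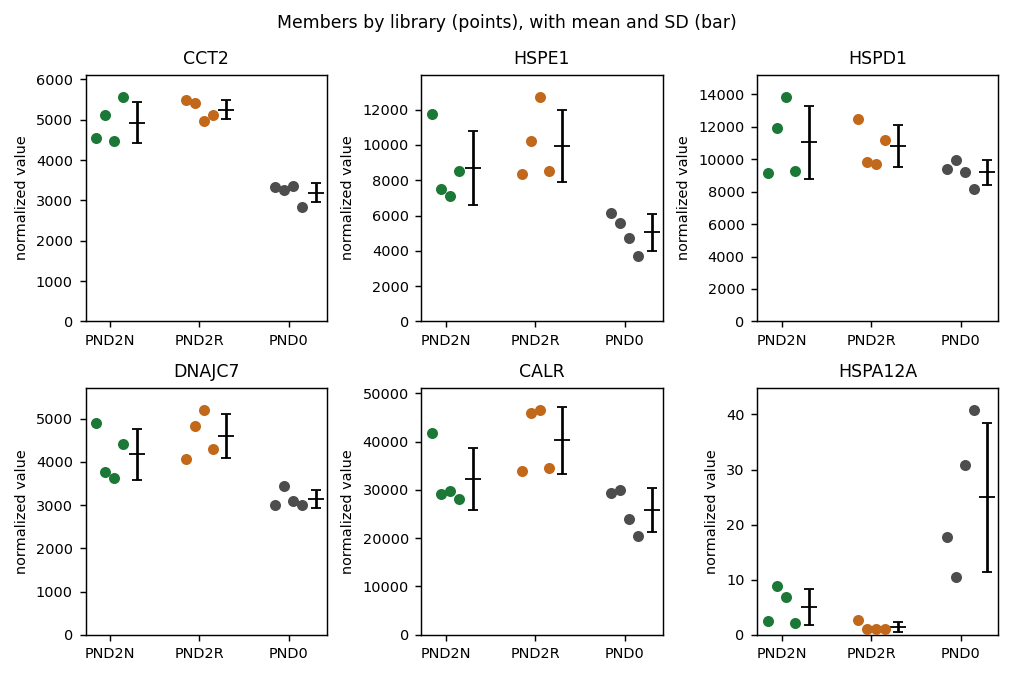
Normalized value (y axis) of CCT2, HSPE1, HSPD1, DNAJC7, CALR and HSPA12A in each library (points) by group, with the mean and SD of 4 libraries beside them. The PND0 points lie below all day 2 points for CCT2, HSPE1 and DNAJC7, and above them for HSPA12A, while HSPD1 overlaps.

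Among the HSP70 genes, HSPA12A, an atypical and distant relative of HSP70 (chr14:137923443-137972052, minus strand), fell in both day 2 groups and was low throughout. It had values of 2.42, 8.85, 6.77 and 2.09 in PND2N, 2.77, 1, 1 and 1 in PND2R, and 17.8, 10.4, 30.9 and 40.8 in PND0. All day 2 libraries lay below all PND0 libraries, and 3 of 4 PND2R libraries were at the lowest value of the table. The log2 change was -2.12 ± 0.50 in PND2N (adjusted p = 0.0450) and -3.30 ± 0.50 in PND2R (adjusted p = 0.00620). The size depends on the treatment of low values and ranged from -3.98 to -2.11 for PND2R over 23 alternatives, all of which kept the call. The PND2N call was kept in 5 of 23 alternatives and was lost without any single library except PND2N 3 and PND0 2 (adjusted p of 0.0518 to 0.139).

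The other HSP70 members did not pass in any comparison. HSPA5, the HSP70 of the endoplasmic reticulum (ER) known as BiP, had values of 12649, 17676, 20105 and 13402 in PND2N, 16926, 17364, 14664 and 15249 in PND2R, and 16974, 19349, 19630 and 13986 in PND0. Its groups overlapped throughout, with log2 changes of -0.15 and -0.11. HSPA9, the mitochondrial HSP70, had values of 9037, 10344, 11510 and 8683 in PND2N, 10786, 8445, 8191 and 9486 in PND2R, and 9271, 10264, 10053 and 8171 in PND0, which also overlapped (log2 changes of 0.06 and -0.04). HSPA4, a cytosolic relative that acts as an exchange factor for HSP70, had 6396, 8048, 8925 and 6073 in PND2N, 8292, 7449, 9740 and 7961 in PND2R, and 6424, 6402, 6061 and 7267 in PND0. All PND2R libraries of HSPA4 lay above PND0, and the log2 change of 0.35 ± 0.15 did not pass (adjusted p = 0.110). HSPA4L, a close relative of HSPA4 described here after its values were seen, was low and varied widely, with 23.6, 168, 217 and 56.0 in PND2N, 140, 39.5, 42.9 and 190 in PND2R, and 77.1, 106, 133 and 169 in PND0, and its groups overlapped (log2 changes of -0.47 and -0.50).

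Among the NCBI-named entries, HSPA14, which with the J protein DNAJC2 forms a complex on ribosomes that helps nascent chains fold, had values of 1417, 1415, 1826 and 1368 in PND2N, 1370, 1450, 1484 and 1516 in PND2R, and 986, 1127, 921 and 773 in PND0. No day 2 library overlapped PND0. HSPA14 rose in PND2N (log2 change of 0.67 ± 0.16, adjusted p = 0.0425) and in PND2R (0.62 ± 0.16, adjusted p = 0.0244). Its PND2N call was lost without any single library except PND0 2 (adjusted p up to 0.109), and its PND2R call without PND2R 2, PND2R 3, PND2R 4, PND0 3 or PND0 4 (adjusted p up to 0.0762).

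HSPA13, an HSP70 of microsomes, had values of 1969 to 3102 in PND2N, 1591 to 2581 in PND2R and 2536 to 5006 in PND0. It fell in PND2R (log2 change of -0.80 ± 0.24, adjusted p = 0.0457), with PND2R 1 still above PND0 1, and 8 single libraries decided the call: PND2N 2, PND2N 4, PND2R 2, PND2R 3, PND2R 4, PND0 2, PND0 3 and PND0 4 (adjusted p without one of them of 0.0555 to 0.133). HSPA8, the constitutive cytosolic HSP70, is taken here as split over 2 entries, the second of which has no NCBI symbol. How reads shared with near-identical copies of HSPA8 were counted is not given in the sources used here. Its entry with the NCBI symbol had 1569, 5216, 5899 and 2271 in PND2N, 5394, 1897, 1483 and 4144 in PND2R, and 3126, 5240, 3981 and 2931 in PND0, and did not pass (log2 changes of -0.20 and -0.40, and of 0.15 and 0.35 without PND2N 1, PND2R 2 and PND2R 3). The entry without an NCBI symbol had 485, 507, 681 and 415 in PND2N, 674, 608, 541 and 585 in PND2R, and 430, 851, 444 and 321 in PND0. Its log2 changes of 0.10 and 0.33 did not pass. If that entry is also HSPA8, the table gives HSPA8 no one direction. The stress-inducible pair HSPA1A and HSPA1B was not matched in the table and was not analysed here.

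HSPH1, the HSP110 exchange factor, had values of 824, 2381, 2124 and 1024 in PND2N, 1780, 1215, 869 and 1636 in PND2R, and 1260, 1579, 1544 and 1248 in PND0. Its spread in PND2N (SD of 778) was wider than in PND0 (SD of 178), and the log2 changes of 0.04 and -0.08 did not pass. HSP90AA1, the inducible cytosolic HSP90, had 19444, 19265, 17818 and 15431 in PND2N, 18284, 19396, 19053 and 16728 in PND2R, and 18567, 19011, 17358 and 14322 in PND0. Its log2 changes were 0.06 ± 0.13 and 0.09 ± 0.13 (adjusted p = 0.796 and 0.621), with full overlap of the groups. The constitutive HSP90AB1, listed under an older symbol, averaged 69978 ± 6197 in PND2N, 72286 ± 2571 in PND2R and 70969 ± 8727 in PND0 (SD, n = 4 each), with log2 changes of -0.02 and 0.03.

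HSP90B1, the ER form of HSP90 known as GRP94, varied more within the day 2 groups, relative to its mean, than the cytosolic forms. It had values of 817, 5953, 8370 and 2825 in PND2N, 6211, 1108, 1064 and 5075 in PND2R, and 7887, 7610, 9237 and 6982 in PND0. The 3 lowest values were in PND2N 1, PND2R 2 and PND2R 3, as they were for HSPA4L and the HSPA8 entry with the NCBI symbol. All PND2R libraries of HSP90B1 lay below PND0. The log2 changes of -1.27 ± 0.72 and -1.68 ± 0.72 did not pass (adjusted p = 0.292 and 0.116), and without those 3 libraries they were -0.60 and -0.49.

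CALR (calreticulin) and CANX (calnexin) are lectin chaperones of the ER that retain glycoproteins until they fold. CALR had values of 41747, 29147, 29768 and 28146 in PND2N, 33976, 46015, 46476 and 34424 in PND2R, and 29328, 29902, 23940 and 20381 in PND0. All PND2R libraries lay above PND0, and the PND2N group overlapped it. CALR rose in PND2R by 0.64 ± 0.18 on the log2 scale, or 1.55-fold (adjusted p = 0.0372), and its log2 change of 0.31 ± 0.18 in PND2N did not pass (adjusted p = 0.299). Without PND2N 1, PND2R 2 and PND2R 3, which held its 3 highest values, the PND2R change was 0.42 (adjusted p = 0.206). The call was also lost without PND2N 4, PND2R 2, PND2R 3, PND0 3 or PND0 4 singly (adjusted p of 0.0506 to 0.115). CANX, an NCBI-named entry, had 14745 to 20530 in PND2N, 15227 to 20397 in PND2R and 18241 to 22390 in PND0, with log2 changes of -0.25 and -0.24 that did not pass.

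Of the 18 J proteins among the members, 17 were tested and 3 passed in PND2R against PND0, with 0 in PND2N (limma, 3 at an unadjusted p under 0.05). Of the 3, 2 rose and 1 fell, where 7.7% of all genes rose and 7.31% fell. DNAJC7, a co-chaperone that links HSP70 and HSP90 through tetratricopeptide repeats, had values of 4898, 3771, 3630 and 4414 in PND2N, 4061, 4826, 5195 and 4309 in PND2R, and 3011, 3437, 3086 and 3002 in PND0. No day 2 library overlapped PND0. DNAJC7 rose in PND2R (log2 change of 0.55 ± 0.14, or 1.46-fold, adjusted p = 0.0240) and had a log2 change of 0.41 ± 0.14 in PND2N (adjusted p = 0.105). The PND2R call was lost without PND2R 2, PND2R 3 or PND0 4 (adjusted p of 0.0621 to 0.0806) and without PND2N 1, PND2R 2 and PND2R 3 together (log2 change of 0.42, adjusted p = 0.15).

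DNAJB14, a J protein of the ER membrane, had values of 797, 863, 1014 and 775 in PND2N, 746, 630, 660 and 728 in PND2R, and 994, 1001, 1010 and 945 in PND0. All PND2R libraries lay below PND0, while PND2N 3 lay above all PND0 libraries. DNAJB14 fell by 0.52 on the log2 scale in PND2R (SE 0.15, adjusted p = 0.0361), and its log2 change in PND2N was -0.20 (adjusted p = 0.392). The call was lost without PND2N 2, PND2N 4, PND2R 2, PND2R 3, PND2R 4 or any PND0 library singly (adjusted p of 0.0512 to 0.109), and was -0.42 (adjusted p = 0.219) without PND2N 1, PND2R 2 and PND2R 3.

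DNAJB13, a J protein of the axonemes of cilia and sperm tails, was low, with values of 20.01, 11.3, 8.90 and 14.2 in PND2N, 22.2, 20.2, 23.7 and 59.1 in PND2R, and 10.3, 8.76, 11.1 and 7.70 in PND0. All PND2R libraries lay above PND0, and PND2R 4 stood far above the rest. DNAJB13 rose in PND2R (log2 change of 1.49 ± 0.40, adjusted p = 0.0300) and had a log2 change of 0.43 ± 0.40 in PND2N (adjusted p = 0.498). Without PND2R 4 the log2 change in PND2R was 1.14. The call was lost without PND2R 2, PND2R 3, PND2R 4 or any PND0 library singly (adjusted p of 0.0531 to 0.0772).

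DNAJC21, a J protein of ribosome biogenesis, had values of 1416, 1551, 1504 and 1439 in PND2N, 1415, 1615, 1488 and 1299 in PND2R, and 1196, 1171, 888 and 1076 in PND0. Both day 2 groups lay wholly above PND0, and the log2 changes of 0.46 ± 0.14 and 0.43 ± 0.14 missed the threshold (adjusted p = 0.0874 and 0.0566). The other J proteins named by rule were closer to their PND0 values. DNAJB1, the main heat-inducible partner of cytosolic HSP70, had 2103, 3017, 3243 and 2373 in PND2N, 2996, 2604, 2007 and 2768 in PND2R, and 3102, 4129, 1794 and 2024 in PND0, with log2 changes of 0.02 ± 0.26 and -0.03 ± 0.26.

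DNAJA1, another cytosolic partner of HSP70, had 9927, 12981, 12053 and 8431 in PND2N, 11570, 11626, 10145 and 10876 in PND2R, and 7712, 11444, 9393 and 8084 in PND0. DNAJA4, of the same class, had 600, 817, 813 and 711 in PND2N, 734, 665, 504 and 663 in PND2R, and 589, 712, 916 and 1165 in PND0. Both overlapped between groups and did not pass, with log2 changes of 0.24 and 0.29 for DNAJA1 and of -0.16 and -0.36 for DNAJA4. The remaining 10 tested J proteins had log2 changes between -0.40 (DNAJC16) and 0.32 (DNAJC19, a subunit of the mitochondrial import motor) in PND2N, and between -0.66 (DNAJC6, the clathrin uncoating factor auxilin 1) and 0.44 (DNAJB11, a BiP partner in the ER) in PND2R, none past the test. Of these 10, DNAJC19 lay above PND0 in all day 2 libraries, DNAJC17 lay above and DNAJC14 below PND0 in all PND2R libraries, and DNAJA3, DNAJB11, DNAJB12, DNAJC3, DNAJC6, DNAJC10 and DNAJC16 overlapped PND0 in both comparisons.

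Of the 20 J proteins found by their NCBI symbol, 3 rose in PND2R against PND0 (DNAJA2, DNAJC15 and DNAJC2), where 7.7% of all genes rose and 7.31% fell. DNAJA2 and DNAJC15 also rose in PND2N, where 1.91% of all genes rose. DNAJA2, a cytosolic partner of HSP70, had values of 4310, 3170, 2804 and 3528 in PND2N, 3248, 4564, 4821 and 3320 in PND2R, and 2067, 2232, 1580 and 1813 in PND0. DNAJC15, an inner membrane protein of mitochondria linked to protein import and respiration, had 1024, 541, 595 and 787 in PND2N, 747, 1018, 1151 and 650 in PND2R, and 302, 376, 435 and 284 in PND0. For both, every day 2 library lay above every PND0 library. DNAJA2 rose in PND2N (log2 change of 0.84 ± 0.19, adjusted p = 0.0363) and PND2R (1.04 ± 0.19, adjusted p = 0.00948).

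DNAJC15 rose in PND2N (1.05 ± 0.26, adjusted p = 0.0497) and PND2R (1.33 ± 0.26, adjusted p = 0.0125). The PND2R calls of DNAJA2 and DNAJC15 held with any 1 library left out and were lost without PND2N 1, PND2R 2 and PND2R 3 together (adjusted p = 0.0639 and 0.0747). Their PND2N calls were less stable: that of DNAJC15 was lost without any single library (adjusted p up to 0.146) and that of DNAJA2 without PND2N 1, PND2N 2, PND2N 4, PND2R 4, PND0 1, PND0 3 or PND0 4 (adjusted p up to 0.114). DNAJC2, the ribosome partner of HSPA14, had 2283 to 2621 in PND2N, 2296 to 2935 in PND2R and 1681 to 2205 in PND0, without overlap, and rose in PND2R (0.43 ± 0.13, adjusted p = 0.0495), a call lost without any single library except PND2N 1 and PND2R 1 (adjusted p up to 0.146).

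**Figure D4:**
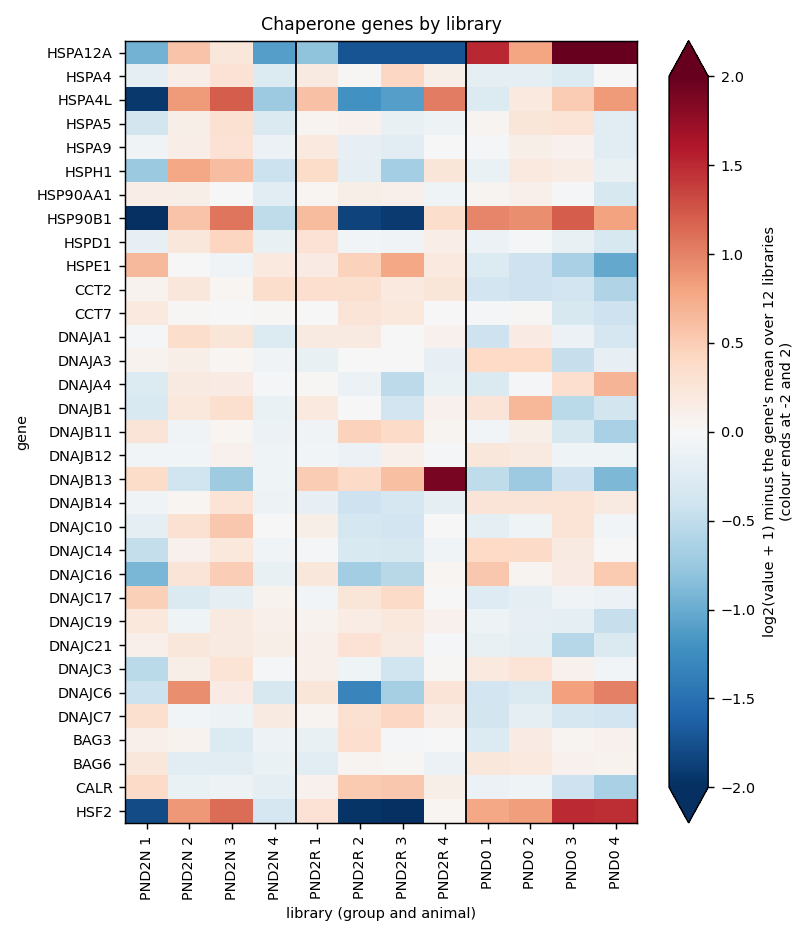
Log2(value + 1) of the 33 tested members (rows) in each of the 12 libraries (columns), minus the gene's mean over all libraries, with red above and blue below that mean. CCT2 is below its mean in all 4 PND0 libraries. HSP90B1, HSF2 and HSPA4L are among the members whose lowest values lie in PND2N 1, PND2R 2 and PND2R 3.

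Many BAG proteins release nucleotide from HSP70. BAG3, which directs damaged proteins of muscle and stressed cells to autophagy, had values of 2770, 2702, 2137 and 2409 in PND2N, 2336, 3266, 2525 and 2577 in PND2R, and 2141, 2899, 2692 and 2744 in PND0. BAG6, which guides tail-anchored and mislocalised membrane proteins, had 9534, 7071, 7016 and 7401 in PND2N, 7048, 8456, 8312 and 7526 in PND2R, and 9491, 9366, 8684 and 8597 in PND0. BAG3 overlapped between all groups (log2 changes of -0.06 and 0.03), whereas all PND2R libraries of BAG6 lay below PND0 (log2 change of -0.21 ± 0.13, adjusted p = 0.247). The NCBI-named BAG2, an inhibitor of the ubiquitin ligase CHIP, had 320, 256, 241 and 268 in PND2N, 381, 349, 339 and 346 in PND2R, and 217, 279, 203 and 217 in PND0. BAG2 rose in PND2R (log2 change of 0.64 ± 0.20, adjusted p = 0.0489), a call lost without any single library except PND2N 1 and PND0 2 (adjusted p up to 0.114).

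All small heat shock proteins were found by NCBI symbol or an older symbol. Of 7 entries, HSPB2 was at 1 in every library and 6 were tested. HSPB6, a small heat shock protein abundant in smooth and striated muscle, had values of 8281, 3318, 2776 and 4007 in PND2N, 3000, 8083, 8160 and 4283 in PND2R, and 2053, 1916, 2355 and 2537 in PND0. HSPB1 (HSP27), which binds actin filaments, had 5664, 1794, 1297 and 2857 in PND2N, 2330, 5244, 5424 and 2823 in PND2R, and 2257, 2043, 1049 and 1035 in PND0. Both were highest in PND2N 1, PND2R 2 and PND2R 3, the libraries with the highest smooth muscle sums and the lowest MYLK and, among day 2 libraries, SYNPO2.

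HSPB6 rose in PND2R (log2 change of 1.29 ± 0.37, adjusted p = 0.0372), and its log2 change of 0.93 ± 0.37 in PND2N did not pass (adjusted p = 0.157). HSPB1 had log2 changes of 0.73 ± 0.46 and 1.31 ± 0.46 (adjusted p = 0.332 and 0.0680). Without PND2N 1, PND2R 2 and PND2R 3 the PND2R change was 0.70 for HSPB6 and 0.78 for HSPB1, neither past the test. The HSPB6 call was also lost without PND2N 4, PND2R 2, PND2R 3 or any PND0 library singly (adjusted p of 0.0544 to 0.116). The parts of smooth muscle content and of RNA or library quality in these values were not tested.

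HSPB11, which is also a subunit of the intraflagellar transport complex of cilia, had values of 374 to 588 in PND2N, 460 to 674 in PND2R and 260 to 413 in PND0. It rose in PND2R, where it did not overlap PND0 (log2 change of 0.79 ± 0.22, adjusted p = 0.0368), and the call was lost without PND2N 4, PND2R 2, PND2R 3, PND2R 4, PND0 1, PND0 3 or PND0 4 singly (adjusted p up to 0.114). HSPBAP1, a binding partner of HSPB1 that met the naming rule by its letters, had 269 to 437 in PND2N, 313 to 502 in PND2R and 183 to 278 in PND0. It rose in PND2R (0.87 ± 0.25, adjusted p = 0.0388), a call lost without any single library except PND2N 1, PND2N 3 and PND2R 1 (adjusted p up to 0.122). HSPB8, the partner of BAG3, had 2212, 2548, 2999 and 3421 in PND2N, 3003, 2493, 2583 and 2740 in PND2R, and 4765, 5926, 2062 and 1916 in PND0, and did not pass (log2 changes of -0.24 and -0.27). Its 2 high PND0 values were in PND0 1 and PND0 2 and its 2 low ones in PND0 3 and PND0 4, the libraries with low epithelial sums. Without PND0 3 and PND0 4, which leaves 2 newborn libraries, HSPB8 passed as lower in PND2N (log2 change of -0.95, adjusted p = 0.0432) and PND2R (-0.98, adjusted p = 0.0254).

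HSF2, a heat shock factor known for roles in development as well as stress, had values of 43.1, 276, 328 and 119 in PND2N, 185, 38.1, 20.6 and 154 in PND2R, and 257, 268, 423 and 422 in PND0. The 3 lowest values again belonged to PND2N 1, PND2R 2 and PND2R 3, and all PND2R libraries lay below PND0. The log2 changes of -1.17 ± 0.75 and -2.25 ± 0.75 did not pass (adjusted p = 0.339 and 0.0596), and without the 3 libraries they were -0.59 and -0.97. HSF1, the main stress-activated factor, was NCBI-named and had 4561, 2573, 2061 and 3651 in PND2N, 2587, 4796, 4950 and 3158 in PND2R, and 3219, 3391, 2563 and 2867 in PND0. It was highest in the same 3 libraries in which HSF2 was lowest, and its log2 changes of 0.03 and 0.32 did not pass.

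**Figure D5:**
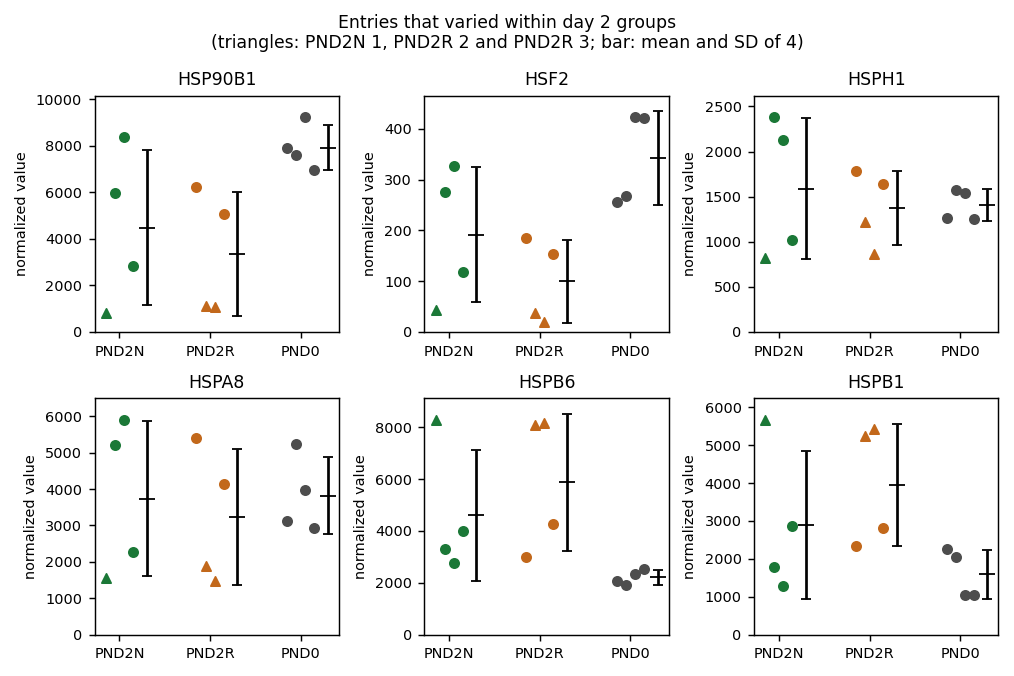
Normalized value (y axis) of HSP90B1, HSF2, HSPH1, HSPA8, HSPB6 and HSPB1 in each library by group, with PND2N 1, PND2R 2 and PND2R 3 as triangles and the mean and SD of 4 libraries as bars. The triangles are the lowest day 2 points of HSP90B1, HSF2 and HSPA8 and the highest of HSPB6 and HSPB1.

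Without PND2N 1, PND2R 2 and PND2R 3, CCT2 was the member that passed in PND2N against PND0 (0.756% of all genes rose), and CCT2 and HSPA12A passed in PND2R against PND0 (0.702% rose and 1% fell of 16671 genes). The same 1 and 2 genes were all that passed when the NCBI-named entries were counted too. Among the genes for which this has not been given above, the adjusted p in PND2R was then 0.0725 for DNAJB13, 0.139 for HSPA14, 0.312 for HSPA13, 0.146 for BAG2, 0.334 for DNAJC2, 0.218 for HSPB11 and 0.201 for HSPBAP1. In PND2N the adjusted p was 0.0759 for HSPA14 (log2 change of 0.69), 0.0536 for DNAJA2 (0.73) and 0.0697 for DNAJC15 (0.88). HSPA12A then had a log2 change of -3.07 in PND2R (adjusted p = 0.0496) and of -1.90 in PND2N (adjusted p = 0.0985). The median over the 33 members was 0.10 in PND2N and 0.11 in PND2R in those 9 libraries.

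Without PND0 3 and PND0 4, the newborn libraries with low epithelial sums, PND0 1 and PND0 2 were the only newborn libraries. Over all genes, 436 then passed in PND2N and 1169 in PND2R, against 560 and 2531 with all 12 libraries. CCT2 kept its call in both comparisons and HSPA12A in PND2R. The PND2R calls of HSPE1 (log2 change of 0.74, adjusted p = 0.0789), CALR (0.43, adjusted p = 0.195), DNAJC7 (0.51, adjusted p = 0.0839), DNAJB13 (1.47, adjusted p = 0.102) and DNAJB14 (-0.53, adjusted p = 0.0769) were lost, as was the PND2N call of HSPA12A (-1.46, adjusted p = 0.170). Of the NCBI-named entries, CCT8, DNAJA2 and DNAJC15 kept their PND2R calls. Those of CCT3, CCT4, DNAJC2, HSPA13, HSPA14, BAG2, HSPB6, HSPB11 and HSPBAP1 were lost (adjusted p of 0.0511 to 0.200). Of these lost calls, HSPB6 (log2 change of 1.44) and HSPBAP1 (1.08) had larger changes than with all 12 libraries (1.29 and 0.87), and the others had smaller ones. The PND2N calls of DNAJA2, DNAJC15 and HSPA14 were also lost (adjusted p of 0.0920 to 0.119).

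With the 44 NCBI-named entries added, 76 entries were tested. In PND2N against PND0, 4 rose (CCT2, DNAJA2, DNAJC15 and HSPA14) and 1 fell (HSPA12A), where 1.91% of all genes rose and 1.41% fell. In PND2R against PND0, 16 rose and 3 fell, where 7.7% of all genes rose and 7.31% fell. Of the 76, 48 were higher in PND2N and 47 in PND2R than in PND0, with median log2 changes of 0.15 and 0.19. The 43 NCBI-named entries tested had medians of 0.27 and 0.32, above those of the 33 members, and the difference between the sets was not tested. The F test over the 3 groups called 3 of the 33 members (CCT2, HSPE1 and HSPA12A), where it called 6.43% of all genes, and 7 of the 76.

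No member passed the test of nursing against milk replacer at the same age. In PND2N against PND2R, 0 of 33 members and 0 of the 76 entries passed (limma), where 0.0119% of all genes did. At an unadjusted p under 0.05 there were 2 members, DNAJB13 with a log2 difference of -1.06 ± 0.40 and HSPA12A with 1.19 ± 0.50, both with an adjusted p of 1.00. Of the NCBI-named entries 1 had such a p, HSPB9, a small heat shock protein known from testis, chosen here after its values were seen. It had 3.63, 1.66, 3.53 and 3.53 in PND2N and 6.65, 7.08, 14.3 and 7.63 in PND2R, without overlap, and a log2 difference of -1.25 ± 0.39 (unadjusted p = 0.00750 and adjusted p = 1.00, limma). The median difference was 0.02 over the members and 0.03 over all genes. For 27 of the 33 members the 95% interval of the difference lay inside a 2-fold change in either direction, for example -0.35 to 0.16 on the log2 scale for CCT2, -0.31 to 0.25 for HSP90AA1 and -0.40 to 0.34 for HSPA5. The widest intervals were those of HSF2 (-0.56 to 2.71), HSP90B1 (-1.16 to 1.98) and HSPA4L (-1.52 to 1.57), which leave differences of more than 2-fold within the interval.

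Partner genes of the chaperones were read from 5 lists. Of 16 tested HSP90 co-chaperones, 7 rose in PND2R against PND0, where 7.7% of all genes rose, and 0 passed in PND2N (limma, 6 at an unadjusted p under 0.05). None of the 7 passed without PND2N 1, PND2R 2 and PND2R 3, where 0.702% of all genes rose in PND2R. CHORDC1, an HSP90-binding protein, had 2787, 2591, 2577 and 2065 in PND2N, 2730, 2840, 2910 and 2831 in PND2R, and 1618, 1821, 1775 and 2229 in PND0, and rose in PND2R by a log2 change of 0.61 (adjusted p = 0.0189). TOMM34, which hands precursors to mitochondrial import, rose by 0.67 (adjusted p = 0.0239), and the others that rose were PPID, TTC4, AHSA1 (the activator of HSP90 ATPase), CDC37L1 and NUDC. The median log2 change over the 16 was 0.33 in PND2N and 0.47 in PND2R.

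Of 12 tested genes of prefoldin and tubulin folding, which deliver actin and tubulin to the CCT ring or fold tubulin after it, 1 rose in PND2N (1.91% of all genes) and 7 in PND2R (7.7% of all genes). None of these genes passed without PND2N 1, PND2R 2 and PND2R 3, where 0.756% of all genes rose in PND2N and 0.702% in PND2R. UXT, a prefoldin-like protein, had 835, 383, 420 and 628 in PND2N, 398, 643, 822 and 496 in PND2R, and 260, 219, 224 and 149 in PND0, without overlap. Its log2 change was 1.36 in PND2N (adjusted p = 0.0407) and 1.44 in PND2R (adjusted p = 0.0168). TBCA, a tubulin folding cofactor, had a log2 change of 0.56 in PND2N (adjusted p = 0.0538) and rose by 0.72 in PND2R (adjusted p = 0.0132), and the others that rose in PND2R were VBP1, PFDN2, PFDN4, PFDN6 and TXNDC9. The list median was 0.52 in PND2N and 0.51 in PND2R.

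Of 22 tested genes of ER folding and the unfolded protein response, MANF, a secreted ER stress protein, rose in PND2R (log2 change of 1.08, adjusted p = 0.0257), where 7.7% of all genes rose. In PND2N 0 passed (limma, 3 at an unadjusted p under 0.05). ERP29, an ER folding factor, had log2 changes of 0.54 and 0.59 (adjusted p = 0.120 and 0.0557), and the list medians were 0.15 and 0.14. Of 9 mitochondrial chaperone partners and proteases, 0 passed in PND2N (limma, 2 at an unadjusted p under 0.05) and 2 in PND2R, where 7.7% of all genes rose and 7.31% fell. OMA1, a stress-activated inner membrane protease, rose (1.47, adjusted p = 0.0236), and SPG7, a subunit of an inner membrane protease, fell (-1.39, adjusted p = 0.0133).

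Of 6 heat shock factor regulators and other stress genes, 0 passed in either comparison (limma, 1 at an unadjusted p under 0.05 in PND2N and 0 in PND2R). PPP1R15A, which reverses the translational block of stress, had log2 changes of -0.60 and -0.38, and the ubiquitin gene UBB had 0.23 and 0.31. Without PND2N 1, PND2R 2 and PND2R 3, no gene of the 5 lists passed in either comparison. In that fit 275 of all 16671 genes passed in PND2N and 284 in PND2R, with 0.756% and 0.702% of all genes rising. The medians of the prefoldin and tubulin folding list were then 0.51 in PND2N and 0.55 in PND2R, and those of the HSP90 co-chaperones were 0.25 and 0.37. Of 8 matched markers of dividing cells, 3 rose in each day 2 group. Over all genes, 1.91% rose in PND2N and 7.7% in PND2R. The sums, of which TOP2A was the largest part, overlapped: 10702 to 34837 in PND2N, 9915 to 27712 in PND2R and 11395 to 20512 in PND0. These markers moved in different directions. AURKA had 677 to 1199 at day 2 and 375 to 420 in PND0, and AURKB and CCNB2 also lay wholly above PND0. BUB1, with a PND0 range of 252 to 480, fell to 30.9 (PND2N 1), 56.2 (PND2R 2) and 44.8 (PND2R 3). TOP2A and CDK1 were also below PND0 in those 3 libraries. Of 8 macrophage markers 3 rose in each day 2 group, beside the same shares of all genes. The macrophage sums were 11211 to 13959 in PND2N, 9899 to 14043 in PND2R and 5393 to 10327 in PND0. Not all macrophage markers went up. CSF1R was lower in PND2R, at 498 to 635 against 715 to 1356 in PND0, and MRC1 overlapped PND0 in both day 2 groups. Of 9 endothelial markers 1 fell in PND2N and 2 in PND2R, where 1.41% and 7.31% of all genes fell. The endothelial sums were 11189 to 16119 in PND2N, 10005 to 11906 in PND2R and 13616 to 19648 in PND0. By these sums all PND2R libraries lay below PND0. Of the single markers, VWF and TIE1 lay wholly below PND0 in PND2R, and the others overlapped it. KDR, for example, had 1537 to 2222 in PND2R and 1529 to 1941 in PND0. The part of these cells in the chaperone values was not tested.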

How the data were processed

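Per the labels' protocols, total RNA from whole uteri was made into NEBNext mRNA libraries. The authors deposited 1 normalized signal value per gene and library on a linear scale. Per the submitters' processing notes, bcl2fastq and the build Sscrofa10.2 were used. How reads were aligned, counted and normalized is not given in the sources used here. Of the low values, 36.4% to 60.0% per library lay within 0.02 of a whole-read step, which is not nearly all, so no count test was run.

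Values were analysed as log2(value + 1), so changes of low genes are understated. Genes above 1 in at least 4 of 12 libraries were kept (16862). One limma 3.58.1 fit (R 4.3.3, statmod 1.5.0) with trended, robust moderation over the 3 groups gave the contrasts and the F test, two-sided and adjusted by Benjamini-Hochberg over all genes at 0.05. The fit was run on simulated data with independent noise in each gene. Those data held no libraries that stood apart, so that run does not cover this feature of the real libraries. The 4 gilts of a group are its replicates, and no 2 libraries held identical values.

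The members and lists were chosen with earlier results of these data known. Genes named are those past the threshold, the 2 smallest F p-values of each family, and a panel of 22 (20 in the table), with HSPA4L and HSPB9 added after their values were seen. The rule on calls and panel was applied to the NCBI-named entries after their values were seen. DNAJB5, whose names conflict between sources, is not described. Of 20390 entries, 14468 were in the NCBI gene table. Alternatives were the added value, filter, scaling, moderation, library weights, groups in the fit, libraries left out and member rule.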

Additional observations from a re-analysis of the deposited data

Results flagged for a closer look

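Within the groups of 4, a library was set apart where its gap to the nearest other library exceeded the critical share of the group's range (Dixon's test at 95%). Of 123 groups of values from 41 named genes, 6 met this, and chance gives about 1 in 20. Of the 6, 3 were in PND2N 1: BAG6 at 9534 (the others at 7016 to 7401), CCT7 at 11032 (the others at 9678 to 9772) and CALR at 41747 (the others at 28146 to 29768). HSPA14 in PND2N 3 was 1826, with the others at 1368 to 1417. DNAJB13 in PND2R 4 was 59.1, with the others at 20.2 to 23.7. HSPA12A in PND2R 1 was 2.77, with the others at 1, the lowest value of the table.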

How the results depend on the processing

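The count of members called in PND2N against PND0 was 2, and was 1 with 0.1 added before the logarithm, with the filter over 10, with library quality weights, without PND2N 1, PND2R 2 and PND2R 3, or without PND0 3 and PND0 4. It was 0 with only those 2 groups in the fit and 5 with the NCBI-named entries, and ranged over 0 to 2 with 1 library left out. In PND2R against PND0 the count of 7 was 2 without the 3 libraries, 2 without PND0 3 and PND0 4, and 19 with the NCBI-named entries, and ranged over 2 to 9 with 1 library left out. The F test count of 3 was 6 with no filter, 1 without the 3 libraries, 0 without PND0 3 and PND0 4, and 7 with the NCBI-named entries, and ranged over 0 to 4 with 1 library left out. The median change in PND2R against PND0 was 0.11 without the 3 libraries and 0.19 with the NCBI-named entries. The largest shift of the median over all genes by another scaling was 0.11 on the log2 scale (quantile normalization, PND2R against PND0), and the member median there was -0.04. PND2N against PND2R gave 0 members in every alternative run.

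Over all genes, 560 passed in PND2N against PND0 and 7 did with only those groups in the fit, 859 with no filter, 275 without the 3 libraries and 26 to 661 with 1 library left out. In PND2R against PND0, 2531 passed, with 284 without the 3 libraries, 1169 without PND0 3 and PND0 4, and 543 to 4109 with 1 left out. The F test called 1084, with 286 and 144 without those sets and 95 to 1688 with 1 left out. Removing HSPBP1 and HSPBAP1 changed nothing, since neither is among the 34 members. No paired analysis was possible because the replicate numbers follow accession order and pair no animals. Promoter motifs were not analysed here. The count of values at 1 limits low genes such as HSPA12A.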
